A study of Mus musculus with 6 samples.

Results

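The genes described here are the 5 myogenic transcription factor genes Myod1, Myog, Myf5, Myf6 and Pax7 and the 3 inhibitor genes Id1, Id2 and Id3, chosen by gene symbol from the 24532 genes of the expression table. All 8 passed the filter on low counts. They were measured by RNA-seq of gastrocnemius muscle, a hind limb muscle made mostly of fast fibers, in male C57BL/6 mice of about 20 weeks of age. The 3 animals labelled WT carried the floxed alleles alone (Sirt6 flox/flox), and the 3 labelled Sirt6 KO carried the same floxed alleles with Myl1-Cre (Myl1-Cre; Sirt6 flox/flox), so that both groups had floxed Sirt6 and Cre was in one group only. Myl1-Cre is active mainly in postmitotic fast (type II) fibers from embryonic life on, so that satellite cells and vessels, whose RNA is in the same extract, are not its main targets. The methods and the reporting summary of the study name different Sirt6 flox lines. Each animal gave 1 library, and p-values measure the spread among these animals.

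Myod1, Myog, Myf5 and Myf6 encode the myogenic regulatory factors, basic helix-loop-helix (bHLH) proteins that pair with E proteins such as those of Tcf3, Tcf4 and Tcf12 and bind E-boxes (CANNTG) in the control regions of muscle genes. MyoD and Myf5 commit cells to the muscle lineage, myogenin drives differentiation, and Mrf4 (Myf6) is the family member that predominates in adult fibers. Pax7 marks satellite cells, the resident stem cells of muscle. The Id proteins have a helix-loop-helix but no basic region, so that they pair with E proteins and keep them off DNA, and their genes are classic targets of bone morphogenetic protein (BMP) signaling and are active in vessel endothelium.

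Of these 8 genes, Myf5 and Pax7 were higher and Myog was lower in the Sirt6 KO-labelled libraries. Myf5 rose 2.51-fold in mean level, Pax7 rose 2.42-fold, and the Myog mean was 1.95-fold higher in WT. These 3 passed an adjusted p of 0.05 in edgeR's quasi-likelihood test (3 of 8 members, 2 higher and 1 lower), where 16.2% of the 13801 genes tested did, 7.85% higher and 8.39% lower. Myod1, Myf6, Id1, Id2 and Id3 did not pass. The median log2 fold change, Sirt6 KO minus WT, was −0.12 over the 8 members and −0.021 over all genes tested. The 3 values of each group lay apart in the same 3 members, 2 higher and 1 lower, against 40.0% of all genes tested, 20.3% higher and 19.6% lower.

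Directions follow the labels, and the check of the deleted gene went against them. Sirt6 (chromosome 10, 81621787 to 81627792 on GRCm38) read 2.77, 2.23 and 2.88 CPM in the WT libraries and 7.81, 7.44 and 6.68 CPM in the Sirt6 KO-labelled libraries, which in log2 is an increase of 1.48 with a standard error (SE) of 0.17 (edgeR, adjusted p = 0.0113). Counts per gene do not separate deleted exons from the rest. WT library 3, the deepest at 63016899 counts, also stood apart. Its log2 levels, compared across genes, correlated with WT 1 and WT 2 at 0.966 and 0.963 and with the Sirt6 KO-labelled libraries at 0.966 to 0.969 (genes are not independent replicates). Values with and without it are given below. Without WT 3, 4582 of 14115 genes tested passed. The library was singled out from these same data, so that calls gained by leaving it out are no independent support. Genes of muscle fibers defined the tissue in every library. The 12 myofiber markers, Acta1 and Ckm among them, summed to 197728 to 246503 TPM in WT and 256230 to 272972 TPM in the Sirt6 KO-labelled libraries. Of these markers, 0 of 12 passed the test in edgeR (1 at an unadjusted p under 0.05, and 3 called by DESeq2). Without WT 3, 9 of the 12 passed, 7 higher and 2 lower.

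Per transcript length, in TPM, the members spanned a wide range of levels. Myf6 was the most abundant, with a mean of 255 TPM over the 6 libraries (place 465 of 24532 genes) and a range of 136 to 390 TPM. Below it came Id1 (26.5 TPM), Myog (26.4), Id3 (19.8) and Myod1 (19.3), whose ranges over the libraries overlapped one another, so that their order is not resolved. Id2 (2.58 TPM) and Myf5 (2.47) overlapped likewise, and Pax7 was lowest at 0.396 TPM, with no library above 0.610 TPM. The ranges of Myf6 and Pax7 overlapped no other member's, since the highest TPM of Id1 was 49.9 and the lowest of Myf5 was 0.965.

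**Figure D1:**
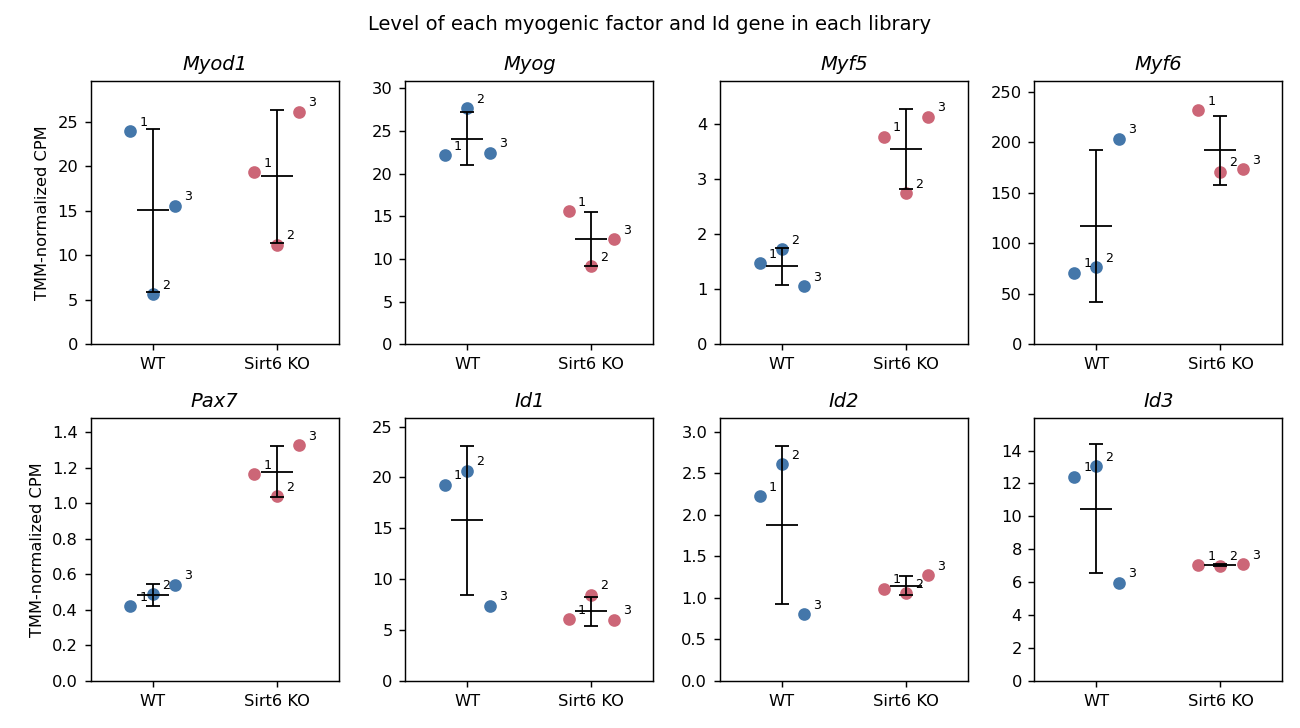
Level of each gene in each library as TMM-normalized CPM, with a vertical axis from 0 in every panel; points are libraries marked with their replicate number, and bars give the mean ± SD over 3 libraries. The groups lie apart for Myog, Myf5 and Pax7, and WT library 3 lies with the Sirt6 KO-labelled libraries for Myf6 and below them for Id2 and Id3.

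Myod1 (gene 17927, chromosome 7, 46376474 to 46379092, plus strand) encodes MyoD, the factor that can convert other cells to muscle. Its level was 23.9, 5.62 and 15.5 CPM in the WT libraries 1 to 3 and 19.3, 11.2 and 26.1 CPM in Sirt6 KO libraries 1 to 3. WT 2 was the lowest of all 6 and the groups overlapped. The means were 15.04 ± 9.17 and 18.9 ± 7.48 CPM (SD, n = 3), a log2 fold change of 0.33 (SE 0.50, edgeR adjusted p = 0.677). The sign turned without WT 2, to −0.065.

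Myog (gene 17928, chromosome 1, 134290004 to 134292548, plus strand) encodes myogenin, which also returns in fibers that lose their nerve. It was the one myogenic factor gene below WT in all 3 Sirt6 KO-labelled libraries, at 22.2, 27.7 and 22.4 CPM against 15.6, 9.14 and 12.3 CPM. The groups did not overlap. Mean levels were 24.1 ± 3.10 and 12.4 ± 3.21 CPM (SD, n = 3), and the log2 fold change was −0.96 (SE 0.20, edgeR adjusted p = 0.0246). In an exact permutation test p was 0.1, the smallest that 3 animals against 3 allow. The counts behind these levels were 1105, 1304 and 1286 in WT and 911, 554 and 680 in the Sirt6 KO-labelled libraries.

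The window of 250 bases before the Myog start site is shown because Myog is the member that fell and because its family acts through E-boxes. It lies at chr1:134289754-134290003 on the plus strand of GRCm38.p6 (RefSeq) and is written 5′ to 3′ with motif matches in capitals.
Myog: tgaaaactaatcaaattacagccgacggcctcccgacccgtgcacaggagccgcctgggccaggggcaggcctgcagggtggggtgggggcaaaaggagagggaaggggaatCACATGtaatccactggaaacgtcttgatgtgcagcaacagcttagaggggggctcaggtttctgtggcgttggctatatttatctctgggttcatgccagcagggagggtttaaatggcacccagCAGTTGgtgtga
The capitals mark 2 E-boxes, CACATG at 138 to 133 and CAGTTG at 12 to 7 bases before the start. The motifs searched on both strands were CANNTG, the cAMP response elements TGACGTCA and TGACG (the shorter is part of the longer), and GGCGCC, a GC-rich motif. An E-box is in 66.2% of 32851 windows of this length, so that its presence does not set Myog apart.

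Myf5 (gene 17877, chromosome 10, 107482908 to 107486927, minus strand) is active early in the lineage and in satellite cells. Its level was low and separated the groups, at 1.46, 1.72 and 1.05 CPM in WT and 3.76, 2.74 and 4.12 CPM in the Sirt6 KO-labelled libraries. These rest on 73, 81 and 60 counts against 220, 166 and 227. Every Sirt6 KO-labelled library lay above every WT library. The log2 fold change was 1.33 (SE 0.27, edgeR adjusted p = 0.0225), between means of 1.41 ± 0.339 and 3.54 ± 0.717 CPM (SD, n = 3), with an exact permutation p of 0.1, again the smallest possible.

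Myf6 (gene 17878, chromosome 10, 107492848 to 107494723, minus strand) lies 5920 bases from Myf5 on the same strand and encodes Mrf4. Its level was 70.7, 76.5 and 204 CPM in WT and 232, 171 and 173 CPM in the Sirt6 KO-labelled libraries. WT 1 and WT 2 were low, and WT 3 fell within the range of the other group. With means of 117 ± 75.2 and 192 ± 34.6 CPM (SD, n = 3), the log2 fold change was 0.71 (SE 0.40, edgeR adjusted p = 0.244). Without WT 3 it was 1.39 with an adjusted p of 0.00519 from the same test. The neighbours Myf5 and Myf6 therefore differed in WT 3, which was the lowest library for Myf5 and the second highest for Myf6.

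Because Myf6 was so abundant it made up most of the summed myogenic regulatory factor transcript. In the 3 WT libraries Myf6 contributed 66.5, 73.1 and 87.2% of the summed TPM of the 4 genes, against 89.1, 91.0 and 85.1% in those labelled Sirt6 KO. The ratio of Myog to Myod1 in TPM was 1.16, 6.17 and 1.81 in WT and 1.01, 1.02 and 0.592 in the Sirt6 KO-labelled libraries. This ratio was lower in each of the latter than in each WT library, and WT 2 stood far above the other WT libraries because its Myod1 level was low. These ratios were formed after the values of the members had been seen and carry no test.

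Pax7 (gene 18509, chromosome 4, 139737059 to 139833530, minus strand) was the least abundant member. It read 0.421, 0.488 and 0.541 CPM in WT, from 21, 23 and 31 counts, and 1.16, 1.04 and 1.33 CPM in the Sirt6 KO-labelled libraries, from 68, 63 and 73 counts. The groups did not overlap and the values within each lay close together. The means were 0.483 ± 0.0601 and 1.18 ± 0.144 CPM (SD, n = 3), with a log2 fold change of 1.28 (SE 0.29, edgeR adjusted p = 0.0299) and an exact permutation p of 0.1, the smallest possible. With the trend over GC content removed it was 1.08 with an adjusted p of 0.0657 from edgeR. In RNA of whole muscle, more satellite cells and more Pax7 RNA per cell cannot be told apart, and the same holds for every gene below that is active in one cell type. The Pax7 gene overlaps another annotated gene, Gm46873, which is not among the genes analysed here, so that reads shared by both could count for Pax7.

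Other genes used as markers of satellite cells did not all follow Pax7. Of 17 such genes, Peg3 (log2 fold change 0.93, SE 0.14, edgeR adjusted p = 0.0132), Itga7, the integrin α7 subunit (0.83, 0.14, 0.0161), and Cdh15, M-cadherin (0.97, 0.20, 0.0243), rose. Sdc4, syndecan-4, fell (−1.41, 0.30, 0.0257). Peg3, Itga7 and Sdc4 are active in other cells of muscle as well, fibers included. Cdh15 averaged 19.0 TPM over the 6 libraries, against 0.396 TPM for Pax7, and the cells it came from were not tested. The more restricted Calcr, the calcitonin receptor of quiescent satellite cells, read 1.42 ± 0.458 CPM in WT and 0.916 ± 0.278 CPM in the Sirt6 KO-labelled libraries (SD, n = 3; adjusted p = 0.256, edgeR), and Vcam1 and Megf10 did not pass the test either. Over the list, 3 genes were higher and 1 lower at an adjusted p under 0.05, with a median log2 fold change of −0.21. Among all genes tested, 7.85% were higher and 8.39% lower at that threshold.

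Lower means in the Sirt6 KO-labelled libraries were common to the 3 Id genes, but none passed the test across all genes (Id1 alone had an unadjusted p under 0.05 and was called by DESeq2). Id1 (gene 15901, chromosome 2, 152736251 to 152737410, plus strand) read 19.3, 20.7 and 7.40 CPM in WT and 6.05, 8.48 and 6.01 CPM in the Sirt6 KO-labelled libraries. WT 1 and WT 2 stood well above the other 4 libraries, while WT 3 lay between Sirt6 KO 1 and Sirt6 KO 2, so that the groups overlapped. The log2 fold change was −1.20 (SE 0.37, edgeR adjusted p = 0.0655; exact permutation p = 0.2), between means of 15.8 ± 7.29 and 6.85 ± 1.41 CPM (SD, n = 3). DESeq2's Wald test gave −1.21 with an adjusted p of 0.00828.

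Id2 (gene 15902, chromosome 12, 25093799 to 25096092, minus strand) was much the lowest of the 3, at 2.23, 2.61 and 0.803 CPM in WT and 1.11, 1.06 and 1.27 CPM in the Sirt6 KO-labelled libraries. Here WT 3 was below every other library. The means were 1.88 ± 0.952 and 1.15 ± 0.112 CPM (SD, n = 3), with a log2 fold change of −0.71 (SE 0.43, edgeR adjusted p = 0.271).

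Id3 (gene 15903, chromosome 4, 136143822 to 136145392, plus strand) showed the same order of libraries, with 12.4, 13.0 and 5.97 CPM in WT and 7.02, 6.995 and 7.08 CPM in the Sirt6 KO-labelled libraries. The latter 3 values were nearly equal, and WT 3 was again the lowest. Its log2 fold change was −0.57 (SE 0.28, edgeR adjusted p = 0.187), from 10.5 ± 3.92 to 7.03 ± 0.0439 CPM (SD, n = 3). Without WT 3, all 3 Id genes passed the test, with log2 fold changes of −1.54, −1.07 and −0.85 for Id1, Id2 and Id3 (adjusted p = 0.00500, 0.0168 and 0.00551, edgeR). In that fit 4582 of 14115 genes tested passed. None of the Id genes passed in edgeR with any other library left out.

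Promoter windows of Id2 and Id3 are shown because the study concerns factors that act on cAMP response elements and because Id genes respond to SMAD proteins, for which GC-rich motifs are known. Each covers 250 bases before the start site on the gene's strand in GRCm38.p6 (RefSeq), at chr12:25096093-25096342 (minus strand) for Id2 and chr4:136143572-136143821 (plus strand) for Id3, with matches to the same 4 motifs in capitals.
Id2: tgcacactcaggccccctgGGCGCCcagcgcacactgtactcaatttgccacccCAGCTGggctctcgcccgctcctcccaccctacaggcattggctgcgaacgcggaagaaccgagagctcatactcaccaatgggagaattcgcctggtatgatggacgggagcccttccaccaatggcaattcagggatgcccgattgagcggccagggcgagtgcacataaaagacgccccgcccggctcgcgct
Id3: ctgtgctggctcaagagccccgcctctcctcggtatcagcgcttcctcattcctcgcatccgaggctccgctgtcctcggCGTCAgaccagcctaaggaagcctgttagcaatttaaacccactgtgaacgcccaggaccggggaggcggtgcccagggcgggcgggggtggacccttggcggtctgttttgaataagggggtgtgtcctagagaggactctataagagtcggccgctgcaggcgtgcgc
In Id2 the capitals mark GGCGCC at 231 to 226 and an E-box, CAGCTG, at 196 to 191 bases before the start, and in Id3 they mark CGTCA at 170 to 166, the reverse complement of TGACG. No full TGACGTCA was in either window, as in all but 1.55% of windows. TGACG is in 17.8% and GGCGCC in 9.59% of all windows of this length. Id2 and Id3 did not pass the test with all libraries. The windows of Myf5 and Pax7, which did pass and rose, are not printed. The Myf5 window, at chr10:107486135-107486384 (minus strand), also held CGTCA, at 124 to 120 bases before the start it was drawn from. The half-site is thus not particular to the Id3 window. The Pax7 window, at chr4:139832969-139833218 (minus strand), held none of the 4 motifs. Both windows lie inside the spans given above for these genes, so that they do not lie before the outermost annotated start.

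Like the Id genes, the endothelial markers in sum were highest in WT 1 and WT 2. The 15 endothelial genes, Pecam1, Cdh5 and Kdr among them, summed to 331, 356 and 150 TPM in the WT libraries and to 206, 199 and 206 TPM in those labelled Sirt6 KO. WT 3 was thus lowest for this sum as for Id2 and Id3, though not for Id1, which was lower in Sirt6 KO 1 and Sirt6 KO 3. Single markers differed. Cldn5 (log2 fold change 0.85), Egfl7 (0.28) and Kdr (0.035) were higher in mean in the Sirt6 KO-labelled libraries, and Cdh5 read −0.062. Of the list 12 of 15 were lower in mean, beside 7121 of all 13801 genes tested, and none was at 0 in every library. The adjusted threshold was passed by 0 in edgeR (4 at an unadjusted p under 0.05, 2 called by DESeq2), with a median log2 fold change of −0.47. Without WT 3, 10 of the 15 passed, all lower, in a fit where 4582 of 14115 genes tested passed, 2219 of them lower. Set against that sum, Id1 was 14.9, 14.0 and 10.2% in WT and 6.59, 9.09 and 6.17% in the Sirt6 KO-labelled libraries, with no overlap between the groups. Id3 was 9.42, 8.66 and 8.04% against 7.52, 7.34 and 7.14%, also without overlap, and Id2 overlapped, at 1.26, 1.29 and 0.810% against 0.890, 0.830 and 0.952%. In CPM, the groups lay apart for 40.0% of all genes tested, and no such share was found for ratios. These ratios were formed after the values had been seen, carry no test, and the part of vessel RNA in the Id levels was not tested.

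Slow fiber genes in sum were also highest in WT 1 and WT 2, with Sirt6 KO 2 next. The 10 slow fiber genes, Myh7 and Tnni1 among them, summed to 6407, 5019 and 148 TPM in WT and 441, 3080 and 637 TPM in the Sirt6 KO-labelled libraries. WT 3 had the lowest slow fiber sum of all 6 libraries, and 0 of the 10 genes passed the test in edgeR, at an unadjusted p under 0.05 or in DESeq2. Library by library, the summed TPM of Id1, Id2 and Id3 was 85.0, 85.3 and 28.6 in WT and 30.8, 34.3 and 29.4 in the Sirt6 KO-labelled libraries, while the summed TPM of the 4 myogenic regulatory factor genes was 205, 189 and 362 against 437, 300 and 324. The ratio of the second sum to the first was 2.41, 2.22 and 12.7 in WT and 14.2, 8.73 and 11.0 in the Sirt6 KO-labelled libraries, so that WT 1 and WT 2 stood apart from the other 4 libraries, WT 3 included. Myf6 made up most of the second sum. Without Myf6 that sum was 68.6, 50.8 and 46.4 TPM in WT and 47.7, 26.9 and 48.3 TPM in the Sirt6 KO-labelled libraries, where WT 1 and WT 2 were not low. The ratio was formed after the values had been seen and carries no test. Whether the slow fiber or vessel content of the sample bears on Myf6 and the Id genes was not tested.

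**Figure D2:**
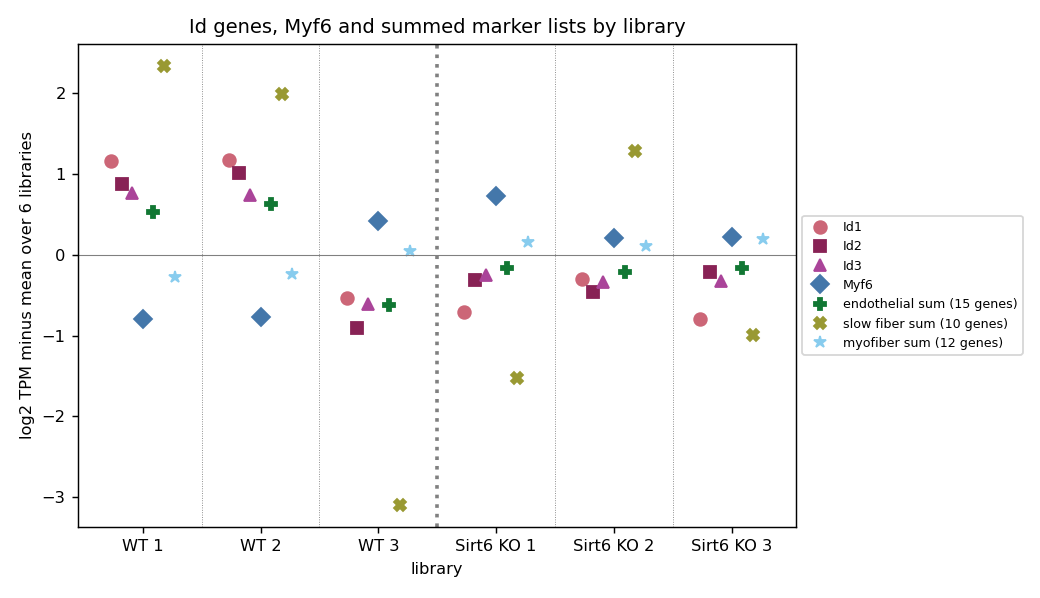
Log2 TPM of Id1, Id2, Id3 and Myf6 and of the summed endothelial, slow fiber and myofiber marker lists in each library, each centred on its mean over the 6 libraries. WT 1 and WT 2 are high for the Id genes and the endothelial and slow fiber sums and low for Myf6, and WT 3 is low for the Id genes, with slow fiber sums of 6407, 5019 and 148 TPM in WT 1, 2 and 3. Sirt6 KO 2 is also high for the slow fiber sum, at 3080 TPM, but not for the Id genes.

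Marker sums of other cell types varied among the libraries as well. Mesenchymal markers summed to 612 to 1307 TPM in WT and 651 to 677 TPM in the Sirt6 KO-labelled libraries (1 of 12 lower, Ly6a), erythroid markers to 122 to 1020 and 240 to 505 TPM, adipocyte markers to 368 to 839 and 512 to 788 TPM, and macrophage markers to 52.1 to 187 and 64.3 to 84.6 TPM. In the last 3 lists 0 genes passed in edgeR, at an unadjusted p under 0.05 or in DESeq2. Without WT 3, 4 of the 12 mesenchymal and 3 of the 5 erythroid markers passed, all lower, and still none of the adipocyte and macrophage markers. That fit called 4582 of 14115 genes tested, 2219 of them lower. Cell cycle markers, summed because Myf5 and Pax7 also mark cycling myoblasts, lay between 58.9 and 75.6 TPM in WT and 62.5 and 66.8 TPM in the Sirt6 KO-labelled libraries. Of these markers 6 of 9 tested were lower in mean (7121 of 13801 over all genes tested), with a median log2 fold change of −0.58. The 2 that passed, Mcm2 and Mcm5, were higher, and without WT 3 there were 2 higher and 1 lower. The part of these cells in the members' levels was not tested.

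Myog, Myf5 and Pax7 kept their direction whichever library was dropped, but each lost its call in 4 or 5 of 6 such fits. When 1 library at a time was dropped, log2 fold changes lay between −1.16 and −0.77 for Myog, 1.16 and 1.50 for Myf5, and 1.18 and 1.37 for Pax7. The adjusted p from edgeR lay between 0.0207 and 0.0987, 0.0186 and 0.0964, and 0.0203 and 0.124. No member passed without WT 1, WT 2, Sirt6 KO 1 or Sirt6 KO 3 (3, 4, 4 and 4 members at an unadjusted p under 0.05), 1 passed without Sirt6 KO 2 (Myf5), and 7 passed without WT 3, all but Myod1. The number of all genes called moved in the same way, from 2242 to 440, 249, 8, 13, 873 and 4582.

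**Figure D3:**
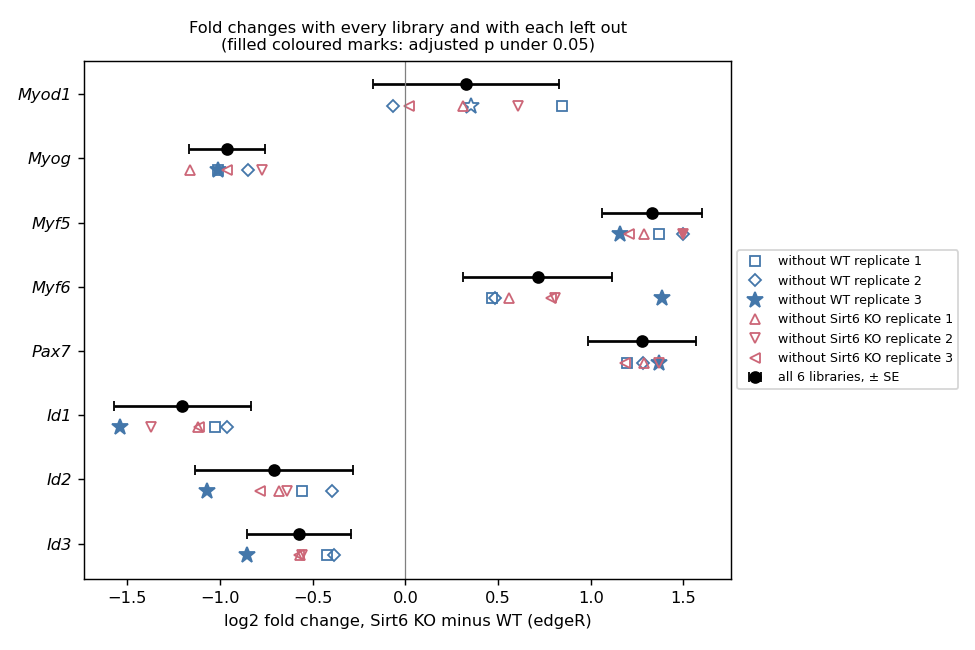
Log2 fold change, Sirt6 KO minus WT, of each gene with all 6 libraries (black, ± standard error) and with each library left out (coloured, filled where the adjusted p is under 0.05). Myog stays below 0 and Myf5 and Pax7 above 0 in every fit, Myod1 crosses 0, and leaving out WT 3 fills the marks of 7 genes.

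Among the partners of these factors, the E protein gene Tcf3 rose. It read 8.16, 8.21 and 7.33 CPM in WT and 14.5, 10.03 and 13.2 CPM in the Sirt6 KO-labelled libraries, with no overlap (log2 fold change 0.67, SE 0.16, edgeR adjusted p = 0.0355). After removal of the trend over GC content it was 0.40 with an adjusted p of 0.154. Tcf4 and Tcf12, the other E protein genes, did not pass, at log2 fold changes of −0.13 and −0.25, and neither did Id4 (−0.74, adjusted p = 0.307). Mdfic, which encodes a relative of the MyoD inhibitor I-mfa, read 0.54 (adjusted p = 0.0547). Tcf3 was the 1 call among 18 tested of the 20 bHLH partners and helix-loop-helix repressors listed, whose median log2 fold change was −0.10. The share called over all genes tested was 16.2%.

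Upstream regulators of the myogenic factors showed 1 call among 20 tested, the homeobox gene Pitx3, which fell from 1.12 ± 0.0496 to 0.463 ± 0.0576 CPM (SD, n = 3), a log2 fold change of −1.26 (SE 0.29, edgeR adjusted p = 0.0297). Mef2c, a partner of the myogenic factors, read −0.38 (edgeR adjusted p = 0.125). Pax3, the relative of Pax7 used in the embryo, was at 0 counts in all libraries. The list's median was −0.060, and 16.2% of all genes tested were called.

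Myogenin is best known in adult muscle for its return after loss of innervation, when it acts on acetylcholine receptor and ubiquitin ligase genes. The listed genes of this program moved in both directions here. Trim63, the ubiquitin ligase MuRF1, fell from 1177, 2886 and 2551 CPM in WT to 561, 612 and 719 CPM (log2 fold change −1.81, SE 0.33, edgeR adjusted p = 0.0181). Fbxo32, also a ubiquitin ligase gene, was lower with no overlap between the groups but did not pass (−0.97, SE 0.30, edgeR adjusted p = 0.0664). The receptor subunit genes Chrnb1 (1.27, 0.20, 0.0138), Chrne, the adult subunit (1.35, 0.35, 0.0406), and Chrna1 (0.73, 0.20, 0.0464) rose, with no overlap between the groups. Chrnd read −0.20 and Chrng, the fetal subunit, 0.79 (adjusted p = 0.276). Thus 3 of 15 genes were higher and 1 lower, with a median log2 fold change of 0.062. The shares over all genes tested were 7.85% higher and 8.39% lower.

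Markers of regeneration and myoblast fusion gave 1 call among 10 tested, where 16.2% of all genes tested were called. At an unadjusted p under 0.05 there were 3 higher and 1 lower, and DESeq2 called 3 higher and 1 lower. Cdkn1a, the cell cycle inhibitor p21, fell from 58.4 ± 21.3 to 25.1 ± 6.64 CPM (SD, n = 3; log2 fold change −1.22, SE 0.28, edgeR adjusted p = 0.0315). Embryonic myosin, Myh3, read 0.74 (adjusted p = 0.0535). The genes of the fusion proteins myomaker and myomixer, in the table as Tmem8c and Gm7325, were too low to test, at no more than 0.170 CPM in any library.

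The BMP pathway, which acts on the Id genes, had 6 calls among 39 listed genes tested (15.4%), a share close to that of all genes (16.2%). Among the ligands, 8 of 9 tested were lower in mean, beside 7121 of all 13801 genes tested. Gdf5 alone passed (adjusted p = 0.0200, edgeR), with 10 to 17 counts in the WT libraries and 0 in each Sirt6 KO-labelled library. It was at least 5.08-fold lower when 3 counts per library are taken as the floor. Bmp4 read −0.78 (adjusted p = 0.0885) and Bmp2 −1.07 (0.0865). Of the receptors and SMADs, Bmpr2, the type II BMP receptor gene, fell from 167 ± 17.1 to 95.4 ± 3.19 CPM (SD, n = 3; −0.81, SE 0.11, edgeR adjusted p = 0.0132), and the BMP co-receptor genes Rgma (1.67, 0.24, 0.0132) and Rgmb (0.77, 0.11, 0.0132) rose. Among 15 antagonists and feedback genes tested, Smurf2, a ubiquitin ligase for SMADs, fell (−0.55, 0.13, 0.0363), as did Atoh8, a bHLH gene induced by BMP (−1.86, 0.52, 0.0498). Atoh8 read 8.70, 13.9 and 2.93 CPM in WT against 1.69, 2.46 and 2.85 CPM, so that WT 3 again lay near the other group. The median log2 fold changes of the 3 lists were −0.33, −0.15 and −0.41.

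**Figure D4:**
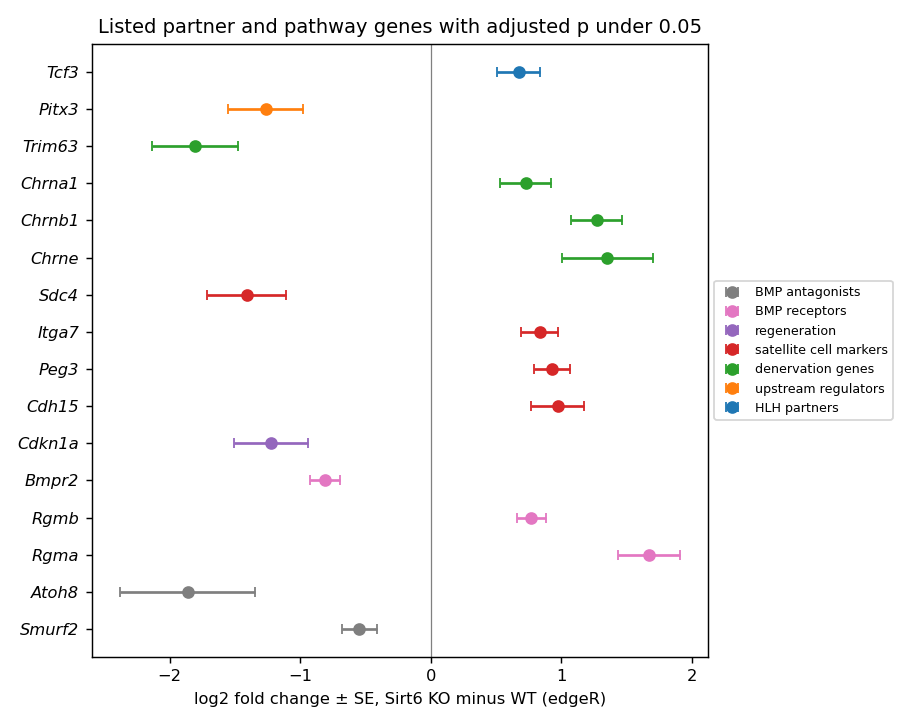
Log2 fold change ± standard error, Sirt6 KO minus WT, of the 16 partner and pathway genes with an adjusted p under 0.05, coloured by list; Gdf5, at 0 in all Sirt6 KO-labelled libraries, is left out. Acetylcholine receptor genes, Rgma and Rgmb, 3 satellite cell markers and Tcf3 lie above 0, and Trim63, Atoh8, Sdc4, Pitx3, Cdkn1a, Bmpr2 and Smurf2 lie below.

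Over these 8 lists together, 17 of 114 genes tested passed (14.9%), 9 higher and 8 lower, close to the 16.2% of all genes tested. All 17 passed without WT 3, where 39 of 117 listed genes did, beside 4582 of all 14115 genes tested. Of the 17, 6 passed without WT 1, 2 without WT 2, 11 without Sirt6 KO 2, and none without Sirt6 KO 1 or Sirt6 KO 3 (31 and 30 of the listed genes at an unadjusted p under 0.05 in edgeR). Bmpr2 and Peg3 passed in 4 of the 6 fits. With the GC trend removed 11 of the 17 passed, and Tcf3, Atoh8, Cdh15, Chrna1, Chrne and Smurf2 did not.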

How the data were processed

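Gastrocnemius RNA from 6 mice, 1 library per animal, was sequenced by the study with paired-end reads of 100 bp, and groups and replicate numbers were taken from the sample labels. Deposited read counts are whole numbers per gene, which the authors obtained with StringTie and did not normalize between libraries. FPKM values, scaled by the authors to gene length and library size, and TPM values, scaled by the authors to a fixed sum per library, are in the same deposited table on mm10. The submitters' processing notes name HISAT2 2.1.0, Bowtie2 2.3.4.1 and StringTie 2.1.3b, whereas the study's reporting summary names STAR. The labels name a stranded TruSeq kit and the methods an unstranded one, and whether counting used the strand is not given in the sources used here.

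Counts of all 24532 genes were filtered with filterByExpr (13801 kept), normalized with TMM and tested in R 4.3.3 with edgeR 4.0.16, the quasi-likelihood test with the group as the one factor and Benjamini-Hochberg adjustment over all genes tested (threshold 0.05). The members were read from that fit. Levels are CPM after TMM, with the SD over 3 libraries. Beside them stand two-sided exact permutation tests on log2(CPM + 0.1), for which 3 animals against 3 allow no p under 0.1. Levels of different genes were compared only as TPM. The script was tested on simulated data. Alternatives were DESeq2 1.42.0 (Wald test), other scalings, no filter, at least 10 counts in every library, a replicate block, each library left out in turn, and limma 3.58.1 on FPKM after quantile normalization with a pseudocount of 1 or 0.1 on the log2 scale. Removal of a trend over GC content (lowess span 0.3, GC known for 13271 of the genes tested or 96.2%) was added after the data were seen.

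The members and gene lists were chosen with earlier results of these data known. All members are named. From each pathway list, up to 4 genes with the smallest p among those with an adjusted p under 0.05 are named by rule, cell type markers are given as counts and sums, and other genes were named after their values were seen. Some single-gene results are not reported here. Promoter sequences are from RefSeq on GRCm38.p6, for 5 of the 8 members. Library totals lay between 44845763 and 63016899 counts, so that 1 count was worth between 0.0165 and 0.0212 CPM.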

Additional observations from a re-analysis of the deposited data

How the results depend on the processing

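Called genes in all numbered 3531 (1730 higher, 1801 lower) with DESeq2 and 940 (457 and 483) with the GC trend removed, against 2242 (1084 and 1158); with each library left out in turn they ranged from 8 to 4582 (6 to 2363 higher, 2 to 2219 lower). Members called ranged from 0 to 7 (0 to 3 higher, 0 to 4 lower) with a library left out. DESeq2 called 2 members lower (Id1 at −1.21), and removal of the GC trend called 1 higher, since Pax7 (1.08, adjusted p = 0.0657, edgeR) was lost. The replicate block called 1 higher, since Pax7 (1.28, adjusted p = 0.0557, edgeR) was lost, and 1922 of all genes; it changed no other member's call. Whether the numbers pair the samples cannot be decided here. Same-numbered libraries deviated from their group means with correlations of −0.106, 0.260 and 0.161, but each mean rests on 3 libraries. Leaving out 1 library moved the log2 fold change of Myod1 from −0.065 (reversed, without WT 2) to 0.84, of Myog from −1.16 to −0.77, of Myf5 from 1.16 to 1.50, of Myf6 from 0.47 to 1.39, of Pax7 from 1.18 to 1.37, of Id1 from −1.54 to −0.96, of Id2 from −1.07 to −0.40 and of Id3 from −0.85 to −0.38. On limma's log2(FPKM + 1) scale, which understates low genes, Myf5 read 0.67 and Pax7 0.19 and both passed. Over 16 alternatives Myog passed in 11, Myf5 in 12, Pax7 in 9, Id1 in 2, Myf6, Id2 and Id3 in 1 each and Myod1 in none (lowest edgeR adjusted p 0.260), and 7 of the 8 kept their sign in all. Apart from what a smaller sample itself costs, the cause of these shifts was not tested. Pax7, the member with the fewest counts, rests on 21 to 73 per library.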

Other observations

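For each member, the genes whose level over the 6 libraries was most like it were found by the root mean square difference of log2 levels, each centred on its own mean. These are descriptions over 6 libraries, chosen for their likeness among 13801 genes tested, and carry no test. Nearest to Id1 were Tspan12 (0.053) and Pparg (0.094), and nearest to Id3 were Gas1 (0.059) and Ptpn12 (0.071). Id2 was most like Tmem30b (0.095) and Dok4 (0.12). For Myog they were Rhbdl3 (0.095) and Scarf1 (0.15), for Pax7 Snhg8 (0.094) and Slx1b (0.095), and for Myf6 Zkscan4 (0.10) and Dynlt1a (0.13). Myf5 had Mxra8 (0.15) and Apc2 (0.19) nearest, and Myod1, whose level spread most over the libraries (SD 0.82 on the log2 scale), had the most distant ones, Rnf8-cmtr1 (0.19) and Ticam2 (0.23).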
